A study of Homo sapiens with 4 samples.

Results

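The activity of stretches of the FAM13A locus was measured next to a weak minimal promoter in BEAS-2B cells, an established line of human bronchial epithelium, with a massively parallel reporter assay. The table lists 7270 oligonucleotides, each 1 allele of a variant in 1 window and 1 orientation. Members were the 7006 oligonucleotides with at least 10 tags, counting tags with at least 10 reads in the plasmid library. In 3469 of the 3635 constructs, a construct being a variant in 1 window and 1 orientation, both alleles passed, and the 2 alleles were then pooled with equal weight.

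The study asked which variants near FAM13A, a gene tied to chronic obstructive pulmonary disease by genome-wide association, act on transcription in airway cells. Oligonucleotides made on an Agilent 244K array were cloned with the minimal promoter, named minP, into a pGL4.10M2 plasmid. The input group is the plasmid pool itself, amplified by PCR and not passed through cells, and the RNA group is polyA RNA from BEAS-2B cells harvested 24 h after nucleofection with that pool, reverse transcribed and amplified. Each group held 1 library, so no value has an error between transfections and no test was made. The cells received episomal plasmid, so the elements were read outside their chromosomal setting, and BEAS-2B was the only cell line of these libraries.

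In such an assay every oligonucleotide is linked to many short tags that are transcribed with the reporter, and the RNA reads of a tag relative to its plasmid reads measure the output of the linked element. A minimal promoter carries little beyond the site where the transcription machinery assembles, so it fires rarely alone and is raised by neighbouring enhancers, stretches of DNA bound by activating transcription factors. Enhancers are classically described as working in either orientation, while promoters fire in a preferred direction. Silencers, bound by repressors, act the other way, although a weak promoter leaves little room to see lowering. In the RefSeq gene table of GRCh38.p14 the neighbours of FAM13A include FAM13A-AS1, NAP1L5, HERC3 and TIGD2.

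The 606 variants lie between positions 89528529 and 90116697 of chromosome 4 in hg19, the build of every position given here. Windows are named L, C and R and orientations F and RC. The sources used here do not say what these letters stand for. The tags shown are those with the most input reads of each allele in the 3 highest and 3 lowest constructs. Each is an 11-base tag written in lower case, with no part singled out.
rs1398940 (89937184), window L, orientation F, allele A: agacccttctt
rs1398940, window L, orientation F, allele G: ctacggagatg
rs2869974 (89937076), window C, orientation F, allele C: gtactcacaat
rs2869974, window C, orientation F, allele T: ggttctacatg
rs7674369 (89872176), window R, orientation RC, allele A: aagtgccaggc
rs7674369, window R, orientation RC, allele G: ttggccgcatg
rs7672716 (90077367), window R, orientation F, allele A: ttgtcttacca
rs7672716, window R, orientation F, allele G: cgtcatttgga
rs2704577 (89894446), window L, orientation RC, allele C: gggcactaaat
rs2704577, window L, orientation RC, allele T: atactacccga
rs17014616 (89736565), window L, orientation F, allele A: agtgagtccga
rs17014616, window L, orientation F, allele T: gtgcgttagtc
These tags show the raw contrast. The tag agacccttctt had 96 input and 91 RNA reads, and gtactcacaat had 82 input and 242 RNA reads. The tag aagtgccaggc had 51 input and 123 RNA reads. On the low side cgtcatttgga had 499 input and 13 RNA reads, gggcactaaat had 213 and 4, and agtgagtccga had 347 and 20. All 6 tags of the highest constructs had more RNA reads per input read than all 6 of the lowest. The constructs were ranked by that ratio over all their tags, so this separation is largely set by the choice. The tags of an allele spread around its mean, and those shown were picked by input reads. All 6 tags of the highest constructs had RNA to input ratios below the mean of their allele. The tag ctacggagatg, for example, had 102 input and 61 RNA reads, and ttgtcttacca 362 and 28.

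The input library held 29398765 reads, a median of 85 per tag, and the RNA library held 11086933, a median of 23. Of 218526 tags, 195477 passed, and 26675 of these, or 13.6%, had 0 RNA reads. Activity is the mean over tags of the log2 ratio of RNA to input, each as a share of its library with 1 read added, minus the mean over all passing tags. An activity of 0 therefore marks the average tag, because the table names no control element. The RNA part and the input part are the same means for RNA and input alone, and activity is the RNA part minus the input part. A pooled construct had a median of 59 tags, and the standard error (SE) over its tags had a median of 0.24 on the log2 scale, from 0.071 to 0.52. That SE covers the spread between tags of 1 transfection only.

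The filter removed 264 oligonucleotides, 6 with no passing tag and 258 with 1 to 9. They were scarce in the plasmid pool, at a median of 6.44 input reads per tag against 99.9 for those kept. In 98 constructs neither allele passed and in 68 only 1 did. Just inside the limit, the 141 oligonucleotides with 10 to 12 tags had a median activity of -0.65 and a 10th to 90th percentile range of -1.47 to 1.65. Just outside it, the 95 with 7 to 9 tags had a median of -1.06 and a range of -1.97 to 1.17. Values at the limit thus sat below the average tag on both sides of it.

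Most constructs lay in a narrow band around the average tag. Raised and lowered are meant against that average, not against the promoter alone. Of the 3469 pooled constructs 2700, or 77.8%, lay within 2-fold of the average tag. The median activity was 0.10, with quartiles of -0.50 and 0.56 and 5th and 95th percentiles of -1.71 and 1.18 on the log2 scale. Raised by at least 2-fold were 290 constructs (8.36%), from 220 variants, and lowered by at least 2-fold were 479 (13.8%), from 294 variants. The raised constructs had a median fold of 2.40 and the lowered ones lay a median of 2.86-fold below the average. The tails differed in shape. At 4-fold there were 41 raised and 80 lowered constructs, at 8-fold 11 raised and 0 lowered, so the distribution had a long thin upper tail and a broad lower shoulder. The split rests on the reference: set against the median tag, which lies above the mean tag (log2 ratios of -0.55 and -0.78), 153 constructs were raised and 645 lowered.

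Both alleles of a construct, which carry separate tags, gave like values. Across the 3469 constructs the activities of the 2 alleles correlated at r = 0.81 (Spearman's coefficient 0.77), with both alleles read in the same 2 libraries. Both alleles lay above 0 in all 290 raised constructs and past 2-fold in 170. Among the 479 lowered constructs both lay below 0 in 477 and past 2-fold in 370. The calls were made on the mean of the same 2 alleles, so these counts are partly set by the call. The activity exceeded the 2-fold line by more than 2 SE in 98 raised and in 264 lowered constructs, so the exact membership of either class near the line is within tag error. Raised constructs were spread evenly over the design, with 150 in orientation F and 140 in RC, and with 90, 102 and 98 in windows L, C and R. The lowered ones numbered 243 in F and 236 in RC, and 168, 166 and 145 in the 3 windows.

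Activity is a ratio, so its RNA and input parts are given apart. Oligonucleotides differed widely in the plasmid pool itself: the input part ran from -2.51 to 5.15 with an SD of 1.12, and the RNA part from -4.15 to 4.15 with an SD of 1.53, against an SD of 0.89 for the activity. Over the 3469 constructs the RNA and input parts correlated at r = 0.82 (Spearman 0.83), the activity and the RNA part at 0.68 (Spearman 0.73), and the activity and the input part at 0.14 (Spearman 0.27). The points of these correlations share both libraries, and each activity is made from the 2 parts it is set against. RNA level therefore followed plasmid abundance more closely than it followed activity.

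Among the 290 raised constructs, 156 (4.5% of all constructs) also had an RNA part at least 2-fold above average. That count was 45 against the median tag, 34 without tags at 0 RNA reads and 16 with the counts of an allele summed over its tags. In 90 the RNA part lay between 0 and that line, and in 44 it was at or below 0. As activity is the RNA part minus the input part, those 44 had input parts of -1 or less. The median parts of the raised constructs were 1.14 for RNA and -0.40 for input. An input part of -1 or less was found in 32.8% of the raised constructs against 23.6% of all constructs. By the same reading 361 lowered constructs (10.4% of all constructs, and 190 constructs without tags at 0 RNA reads) had an RNA part at least 2-fold below average, 60 had one between 0 and that line, and 58 had one at or above 0. Their median parts were -2.17 for RNA and -0.48 for input, and 19.8% had an input part of 1 or more against 18.2% of all constructs. An input part of -1 or less was found in 186 of the 479 lowered constructs, against 819 of all 3469. Over all constructs 915 had an RNA part of 1 or more and 1009 had one of -1 or less. By these counts lowering went with an RNA part past 2-fold more often than raising did. The counts make no allowance for plasmid abundance, which the RNA part followed.

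Of the 44 raised constructs without RNA above average, the highest was rs6532091 at 89877367 in window R, orientation F. Its C allele had 19.2 input and 26.4 RNA reads per tag and its T allele 18.1 and 38.0, which gave an activity of 1.95 ± 0.43 (SE over tags) from an RNA part of -0.46 and an input part of -2.41. The next were rs6834787 at 89912464 in window R, orientation RC (1.91 ± 0.37, RNA part -0.037, input part -1.95), and rs59473955 at 89757082 in window R, orientation RC (1.84 ± 0.33, RNA part -0.18, input part -2.01). These are raised ratios at a pooled RNA level that was average or lower, although the RNA part of 1 allele was above 0 in the first 2 (0.29 for T and 0.28 for C). Conversely, 11 constructs with an RNA part of 1 or more were lowered, and 2 with an RNA part of -1 or less were raised.

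Both calls moved with plasmid abundance. With the constructs split into 5 equal classes by input part, from scarcest to most abundant plasmid, the share of raised constructs was 13.1%, 7.35%, 7.36%, 7.93% and 6.05%. The share of lowered constructs was 23.9%, 11.1%, 9.52%, 9.94% and 14.6% in the same order. The scarcest class thus held the highest share of both. The median activity went from -0.48 in that class to 0.43 in the most abundant one, and the highest activity from 4.11 to 1.78, while the median SE fell from 0.32 to 0.16. The part of plasmid abundance in these calls was not tested.

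The 15 highest constructs come from 13 variants, 9 in orientation F and 6 in RC, and raised the ratio 6.65-fold to 17.2-fold. The strongest was rs1398940 at 89937184 in window L, orientation F. Its A allele had 38.6 input and 162.9 RNA reads per tag over 16 tags, and its G allele 37.7 input and 136.1 RNA reads over 23 tags. No tag of either allele was at 0 RNA reads, and the activity was 4.11 ± 0.20, or 17.2-fold, from an RNA part of 2.52 and an input part of -1.59. Next was rs2869974 at 89937076 in window C, orientation F. Its C allele had 36.3 input and 153.9 RNA reads per tag and its T allele 34.3 and 120.0, for an activity of 4.06 ± 0.15, or 16.7-fold, from parts of 2.46 and -1.60. Its window R in the same orientation had 29.8 and 108.1 reads per tag for C and 30.3 and 108.4 for T, an activity of 3.63 ± 0.26. With the counts of an allele summed over its tags, these activities were lower, at 3.40, 3.38 and 3.28 in that order. Without tags at 0 RNA reads they were 3.65, 3.60 and 3.43.

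These 2 variants are 108 bp apart, and their values are given by window and orientation. As the meaning of the window letters is not stated, the values were not placed on the DNA. In orientation F rs2869974 read 0.24 ± 0.42 in window L, 4.06 ± 0.15 in C and 3.63 ± 0.26 in R. In the same orientation rs1398940 read 4.11 ± 0.20 in L, 1.08 ± 0.20 in C and -0.35 ± 0.22 in R. In F the values above 1 thus lay in windows C and R of the lower position and in windows L and C of the higher one. In orientation RC rs2869974 read -1.90 ± 0.20, -1.53 ± 0.21 and -1.16 ± 0.09 in L, C and R, and rs1398940 read -2.16 ± 0.24, -0.11 ± 0.28 and 1.26 ± 0.19. The 3 constructs above 3 in F were thus lowered in RC, while windows C and R of rs1398940 were near average and raised there.

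The parts for this pair show both sides of the ratio moving between orientations. In window R of rs2869974 the RNA part was 1.82 in F and 1.60 in RC, and the input part -1.81 and 2.76. In window C it was 2.46 and -0.78 for RNA and -1.60 and 0.75 for input. For window L of rs1398940 the RNA part was 2.52 in F and -1.68 in RC, with input parts of -1.59 and 0.49. Windows C of rs2869974 and L of rs1398940 thus differed between orientations in RNA as well as in input, and window R of rs2869974 almost only in input.

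The other high constructs lay at other variants. For rs7674369 at 89872176 in window R, orientation RC, the A allele had 23.8 input and 80.7 RNA reads per tag and the G allele 22.5 and 115.3, for an activity of 4.02 ± 0.17. For rs10030965 at 89901415 in the same window and orientation, the A allele had 30.6 and 117.7 and the C allele 35.2 and 119.8, for 3.92 ± 0.24. For rs10516826 at 89918968 in window L, orientation F, the C allele had 28.0 and 105.1 and the T allele 23.1 and 79.8, for 3.83 ± 0.20. In all 3 the RNA reads per tag were several times the input reads, whereas over all passing tags the means were 150 input and 55.6 RNA reads.

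At rs2924941 (89644197) high values in orientation F spanned a pair of windows, with 3.80 ± 0.22 in L and 2.92 ± 0.28 in C. The remaining constructs of the 15 in orientation F were rs1398942 at 89930392 in window L (3.07 ± 0.18), rs2924353 at 89598519 in R (2.77 ± 0.28) and rs11737016 at 89908727 in L (2.73 ± 0.20). In orientation RC they were rs10019681 at 89832532 in window C (3.41 ± 0.17), rs2972021 at 89584424 in L (3.29 ± 0.15), rs6814344 at 89733882 in C (3.05 ± 0.26) and rs13113298 at 90025750 in R (2.77 ± 0.13). Each lay above 2-fold by far more than its SE.

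Most of the 15 had low plasmid abundance. Their alleles had 22.5 to 118 input reads per tag (median 34.6) and 49.6 to 194 RNA reads per tag (median 110), and only 9 of their 651 tags were at 0 RNA reads. The input part was below 0 in all 15 and at -1 or less in 13, and the RNA part was 1 or more in 14. The exception in RNA was rs2924353, with an RNA part of 0.87 and an input part of -1.90. The input part nearest 0 was that of rs13113298, at -0.0083 with an RNA part of 2.76. Its C allele had 118 input and 194 RNA reads per tag and its T allele 101 and 165. The gap between the alleles of a construct was 0.013 to 0.63 (median 0.25).

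Turned around, none of the 15 lay above the average tag. Their opposite orientations had activities from -2.16 to -0.64 (median -1.30), and 12 of the 15 were lowered by at least 2-fold. The opposite input part exceeded the construct's own in all 15 and was 1 or more in 7. The opposite RNA part ran from -2.18 to 1.60 (median -0.49), was below the construct's own in all 15, and was above 0 in 6. The 15 were chosen by their own ratio, which favours low input and high RNA in the chosen orientation. The comparison of parts between orientations is therefore partly set by that choice. In rs6814344, for example, the RNA part was 1.21 in RC and 1.15 in F while the input part was -1.84 and 2.38. In rs2924941, window L, the RNA part was 2.26 in F and -1.58 in RC with input parts of -1.54 and -0.10.

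The 10 lowest constructs lay close together, between -2.65 and -2.52 on the log2 scale. The lowest was rs7672716 at 90077367 in window R, orientation F. Its A allele had 157 input and 9.11 RNA reads per tag and its G allele 181 and 6.72, for an activity of -2.65 ± 0.19, or 6.26-fold below the average tag, from an RNA part of -1.995 and an input part of 0.65. For rs2704577 at 89894446 in window L, orientation RC, the C allele had 99.7 and 4.62 reads per tag and the T allele 134.5 and 6.43, for -2.62 ± 0.18. For rs17014616 at 89736565 in window L, orientation F, the A allele had 184 and 8.78 and the T allele 213 and 8.41, for -2.61 ± 0.17. In each, the RNA reads per tag of both alleles were far below their input reads.

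The other low constructs were rs1795734 at 89933630 (window C, F, -2.61 ± 0.17), rs60751124 at 89934939 (L, RC, -2.57), rs938268 at 90036774 (R, F, -2.57 ± 0.14), rs7660385 at 89860819 (L, F, -2.56), rs1398946 at 90055899 (C, RC, -2.55 ± 0.19, and R, RC, -2.52) and rs11097209 at 89944974 (C, RC, -2.52). Their parts differed. In rs1398946, window C, the RNA part was -3.16 and the input part -0.61, with 2.59 and 2.80 RNA reads per tag for A and C. In rs938268 the RNA part was -0.58 and the input part 1.99, with 471 and 400 input reads per tag for C and T against 20.6 and 18.5 RNA reads. The first is low RNA from ordinary plasmid abundance, and the second is slightly low RNA from very abundant plasmid.

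Over the 10, alleles had 73.2 to 471 input reads per tag (median 172) and 2.59 to 20.6 RNA reads (median 7.95), and 157 of 593 tags, or 26.5%, were at 0 RNA reads. The gap between alleles was 0.035 to 0.71. Only 4 of the 10 had a measured opposite orientation, with activities from -0.81 to 0.32, and none of these was raised or lowered by 2-fold. The opposite orientations of the other 6 failed the tag filter, with 2.04 to 21.4 input reads per tag over all their tags. Their RNA reads per tag ran from 0.20 to 41.3, so they were not all silent. In rs938268, window R, orientation RC, the C allele had 5.90 input and 41.3 RNA reads per tag and the T allele 3.23 and 37.0. In this case the filter on input removed a construct with more RNA than plasmid reads opposite to a lowered one.

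This loss was general among lowered constructs. The opposite orientation was unmeasured for 104 of the 479 lowered constructs (21.7%), for 4 of the 290 raised ones (1.38%) and for 147 of all 3469 (4.24%). The orientation comparison below therefore covers lowered constructs less fully than raised ones.

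Over all windows activity in one orientation was only weakly related to the other, but 2-fold calls opposed each other more often than they matched. Over the 1661 windows measured both ways, activity in F and in RC correlated at r = -0.13 (Spearman -0.018), the RNA parts at 0.21 and the input parts at -0.024. With tags of at least 1 input read the activity correlation was -0.31, and with at least 50 it was 0.014, so its sign and size depend on which tags count. Of the 286 raised constructs measured the other way, 12 (4.20%) were raised there too and 79 (27.6%) were lowered, against 8.36% and 13.8% of all constructs, and their median opposite activity was -0.15. Of 375 lowered constructs, 30 (8%) were lowered the other way and 79 (21.1%) were raised, with a median of 0.14. The shares over all constructs include 147 without a measured opposite, 104 of them lowered and 4 raised. Among constructs measured both ways the lowered share is therefore below 13.8%.

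The windows raised at least 2-fold above the average tag in both orientations, the pattern described for enhancers, numbered 6 of 1661. They are named here because their count is small, after their values were seen. The highest was rs7697781 at 90093972, window C, with 2.17 ± 0.25 in F and 1.11 ± 0.18 in RC. For rs10004795 at 90000860, window L, the activities were 1.28 ± 0.11 and 1.26 ± 0.17, with RNA parts of 3.29 and 1.80. For rs2305934 at 89744242, window L, they were 1.06 ± 0.15 and 1.08 ± 0.12, with RNA parts of 3.02 and 2.62. These 2 windows sit just past the 2-fold line with RNA well above average both ways.

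The others were rs6838424 at 89896036, window L (1.05 ± 0.16 and 1.10 ± 0.17), rs17822121 at 90087400, window R (1.06 ± 0.22 and 1.06 ± 0.18), and rs3756051 at 89613579, window C (1.004 ± 0.13 and 1.03 ± 0.33). The RNA part was 1 or more both ways in 5 of the 6, the exception being rs3756051 in RC at 0.34. Only rs7697781 and rs10004795, both in F, stood more than 2 SE above the 2-fold line. The 6 lay apart from the 15 highest constructs, none of which had a raised partner.

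Windows lowered in both orientations numbered 15, from 15 variants, and 12 of them had RNA parts of -1 or less both ways. At rs12508970 (89984956), window R, the activities were -2.05 ± 0.18 in F and -1.94 ± 0.20 in RC, with RNA parts of -3.11 and -3.09 and input parts of -1.06 and -1.15. At rs11729108 (89781164), window C, they were -1.93 ± 0.24 and -1.93 ± 0.15, and at rs10428504 (89716933), window R, -1.41 ± 0.31 and -1.86 ± 0.20. These examples were likewise chosen after their values were seen. Of these 6 constructs, 5 also had an input part of -1 or less, the exception being rs11729108 in F at -0.05.

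Windows of the same variant in the same orientation overlapped in behaviour only in part. Activities in windows L and C correlated at r = 0.37 over 1115 pairs, C and R at 0.37 over 1120, and L and R at 0.23 over 1112, where pairs share a variant and both libraries. The windows with a raised construct beside them, in another window of the same variant and orientation, numbered 479, of which 109 (22.8%) were raised and 33 (6.89%) lowered. Those with a lowered construct beside them numbered 729, of which 257 (35.3%) were lowered and 33 (4.53%) raised. Among all constructs 8.36% were raised and 13.8% lowered. Among the 1082 variants by orientation with all 3 windows, the median spread from lowest to highest window was 0.997 and the largest 4.66. In 538 it reached 2-fold.

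Raising in all 3 windows was seen for 7 of those 1082 and lowering in all 3 for 37. The highest was rs6532091 at 89877367 in F, at 2.43, 1.79 and 1.95 in L, C and R, though with RNA parts of 0.94, 0.19 and -0.46. For rs7695732 at 89832791 in F the activities were 1.68, 1.40 and 1.84, with RNA parts of 1.04, 0.60 and 1.82. For rs72665823 in F, 291 bp away at 89833082, they were 2.34, 2.25 and 1.09, with RNA parts of 0.42, 0.28 and 0.69. These neighbours both held a raised ratio with RNA above average in every window, which was so for 3 of the 7.

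For rs10001319 at 89763676 in F, the windows read 1.77, 1.60 and 1.72 with RNA parts of -0.21, -0.54 and -0.06. Their input parts were -1.98, -2.14 and -1.77. The others were rs710834 at 89618837 in F, rs2609264 at 89828080 in RC, and rs1513819 at 90080937 in RC, whose windows read 1.73, 1.14 and 1.03 with RNA parts of 1.32, 0.93 and 1.02. Of the 37 lowered in all windows, 14 had RNA parts of -1 or less throughout and 25 had RNA parts below 0 throughout. The lowest mean was that of rs2924348 in RC, with -2.40, -2.36 and -2.12. One of the 37, rs7674369 in F (-1.05, -1.18 and -1.27), had RNA parts of 1.97, 1.80 and 0.078 and input parts of 3.02, 2.98 and 1.35. Window R in RC of this variant was among the 3 highest constructs.

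Neighbouring variants read nearby DNA with other oligonucleotides and other tags. Among variants 61 to 110 bp apart, activity in window R of the lower position correlated with window L of the higher one at r = 0.60 in F (Spearman 0.40, 39 pairs) and 0.43 in RC (Spearman 0.37, 40 pairs). For that pairing in F the input parts correlated at 0.57 and the RNA parts at 0.31. Its 39 pairs include rs2869974 in R (3.63) and rs1398940 in L (4.11), 108 bp apart and among the highest constructs. The correlation without them was not computed. Over all pairings of windows r ran from -0.02 to 0.60 in F and from -0.33 to 0.47 in RC. At 1 to 60 bp it ran from -0.05 to 0.38 in F, where R with L gave 0.085, and from 0.0074 to 0.50 in RC. Over 110 and up to 200 bp apart, r ran from -0.18 (R with R) to 0.34 (C with L, Spearman 0.32, 56 pairs) in F. In RC it ran from -0.17 to 0.058 in that class. Over 200 and up to 600 bp apart, every pairing of windows lay between -0.05 and 0.13 over 270 to 289 pairs. The pairs share both libraries and some share a variant, and the distance classes were chosen after the data were seen. Positive values thus appeared among close variants, in some pairings of windows and not in others, and adjacent variants lay a median of 572 bp apart.

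Averaged over windows and orientations, few variants stood away from the average tag. Among 593 variants with at least 4 constructs and both orientations, means ran from -1.48 to 1.13 with an SD of 0.44, 2 reached 1 and 16 lay at -1 or below. The median SD among the constructs of 1 variant was 0.69. That is a spread of single constructs, whereas 0.44 is a spread of means, so the 2 cannot be compared directly. The 2 highest were the neighbours rs72665823 (1.13 ± 0.95, SD over 6 constructs, with means of 1.89 in F and 0.37 in RC) and rs7695732 (1.07 ± 0.66, with 1.64 and 0.50). All 12 of their constructs were above 0, from 0.24 to 2.34. The mean of rs72665823 fell to 0.55 with at least 20 tags per allele and to 0.49 with tags of at least 50 input reads, while that of rs7695732 was 1.07 and 0.92.

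After these came rs76806573 at 89682729 (0.92 ± 0.76), rs9991039 at 89765872 (0.91 ± 0.81) and rs2085601 at 89895944 (0.85 ± 0.80, and 0.34 with tags of at least 50 input reads). In each the highest construct was in RC with an input part below 0, as in window C of rs76806573 (2.34 ± 0.28, input part -1.60). In F its window R had far more RNA and plasmid and a lower ratio (0.98 ± 0.11, RNA part 3.22, input part 2.23). The lowest means were those of rs1563689 at 89837147 (-1.48 ± 1.01), rs874147 at 89998258 (-1.38 ± 0.55), rs4693973 at 89797667 (-1.34 ± 1.29), rs17014616 (-1.29 ± 1.21) and rs74610824 at 89760151 (-1.25 ± 0.93). These rest on 4 or 5 constructs, 3 of them lowered in each. With tags of at least 1 input read the means of rs874147, rs4693973, rs17014616 and rs74610824 were -0.37, -0.38, -0.72 and -0.80, while that of rs1563689 was -1.17. Under stricter filters rs17014616 read -2.13 with at least 20 tags per allele and rs4693973 -2.02 with tags of at least 50 input reads. In rs1563689 the 3 windows in F read -2.11, -1.58 and -2.22 in L, C and R, and the single one in RC -0.02.

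At the scale of broad stretches no mean lay 2-fold above or below the average tag. On a 10 kb grid 59 stretches held 3 to 24 variants, and their means over variants ran from -0.47 to 0.29 (median -0.050, SD 0.15), with 57 within 0.30 of 0. The SD over variants exceeded the size of the mean in 57 of the 59 (median SD 0.42). Stretch means in F and in RC correlated at r = -0.26 over the 59, which share variants and libraries, and had opposite signs in 35.

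The lowest stretch was chr4:89700001-89710000, at -0.47 ± 0.57 (SD over 8 variants), with means of -0.40 in F and -0.48 in RC. There 16 of 46 constructs (34.8%, against 13.8% of all constructs) were lowered and 3 (6.52%, against 8.36%) raised, and the RNA part was -1.08 and the input part -0.61. It was below average in both orientations, and its RNA and plasmid levels were both low. Next were 90060001-90070000 (-0.35 ± 0.68, 4 variants, 8 of 21 constructs or 38.1% lowered), 90050001-90060000 (-0.29 ± 0.70, 17 variants), 90110001-90120000 (-0.28 ± 0.71, 10 variants) and 89690001-89700000 (-0.24 ± 0.39, 5 variants). The last adjoins the lowest stretch.

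The highest stretch was chr4:89580001-89590000, at 0.29 ± 0.19 over 5 variants, where 1 of 30 constructs was raised and 0 were lowered. The raised one was rs2972021 in window L, orientation RC, among the 15 highest, and without it the mean was 0.18. The RNA part of this stretch was 0.090 and its input part -0.21. At 89870001-89880000 (0.27 ± 0.31, 11 variants) 10 of 65 constructs were raised (15.4%) and 9 lowered (13.8%, the same share as over all constructs). At 89610001-89620000 (0.24 ± 0.47, 9 variants) 10 of 52 were raised, or 19.2%, and 3 lowered, or 5.77%, with means of 0.28 in F and 0.25 in RC. The stretches at 90100001-90110000 (0.24 ± 0.22, 10 variants) and 90090001-90100000 (0.22 ± 0.49, 9 variants) adjoin each other and followed. RNA and input parts were 0.33 and 0.054 at 89870001-89880000, and 0.28 and 0.034 at 89610001-89620000. They were 0.18 and -0.057 at 90100001-90110000, and 0.065 and -0.16 at 90090001-90100000. In the highest stretch and at 90090001-90100000 the input part was thus larger in size than the RNA part. The largest share of raised constructs in any stretch was 29.2%, against 8.36% of all constructs, at 90080001-90090000 (7 of 24), where 4 others were lowered and the mean was 0.02. Of the 15 highest constructs, 7, from 6 variants, lay between 89901415 and 89937184, a span of 35769 bp of 588168 that held 12.1% of all constructs. In that span 45 of 419 constructs (10.7%) were raised. The span was chosen after the values were seen, and the grouping was not tested.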

How the data were processed

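The deposited table gives whole-number read counts per tag for 4 libraries, 2 of them with the minimal promoter, which alone were used; the SV40 libraries were not used here. Per the labels, the authors sequenced PCR products with 36 nt single reads. The sources used here do not say how reads were assigned to tags or filtered. No molecular identifiers were stated, so reads are not independent molecules. All 394 oligonucleotides (51 variants) with a mark in their names were kept.

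From the counts as deposited, tags with 10 or more input reads and alleles with 10 or more tags were kept, and 1 read was added before logs. The table's positions are hg19. Python 3.11.15, numpy 2.4.6 and pandas 2.3.3 were used, and the scripts were tested on simulated data. Members and lists were chosen with earlier results of these data known. Named were the 15 highest and 10 lowest constructs, the 3 highest of the raised constructs without RNA above average, and the 5 highest and 5 lowest variants and 10 kb stretches. Alternatives changed the input minimum, pseudocount, tags at 0 RNA reads, averaging, reference, tag number, tag bases, marked oligonucleotides and grid. No oligonucleotide sequence or hg19 annotation was used here, so places relative to exons were not analysed.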

Additional observations from a re-analysis of the deposited data

How the results depend on the processing

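Of 290 raised constructs, the count became 178 with an input minimum of 50 reads (2729 constructs measured), 153 with the median tag as reference and 188 with summed counts. With RNA also above, 156 became 271 with a pseudocount of 0.5, 45 with the median tag as reference, 16 with summed counts and 34 without tags at 0 RNA reads. Of 479 lowered constructs, the count became 756 with the median over tags. With RNA also below, 361 became 645 with that median and 190 without tags at 0 RNA reads. The highest stretch mean of 0.29 became 0.50 on a 5 kb grid and 0.063 against the median tag, and the lowest of -0.47 ranged from -0.34 on a 20 kb grid to -0.79 on a 5 kb grid. The cause was not tested. In the other alternatives run, these counts stayed within 1.5 times. The 28 named constructs kept their direction and stayed past 2-fold in every alternative that measured them, but only 12 of them were measured with an input minimum of 50 reads and 18 with 20 tags per allele. Summed counts moved 16 of the 28 by more than 2 SE. The orientation correlation of -0.13 was -0.41 without tags at 0 RNA reads and -0.26 with summed counts. No paired analysis was possible because each group had 1 library. Depth limits constructs with scarce plasmid most, and 1 transfection leaves every value without a replicate.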
